A study of Mus musculus with 12 samples.

Results

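The peaks of the control library labelled size3 are the genomic intervals in which an antibody against MACF1 recovered more DNA from control MC3T3-E1 cells than the matched input did. Every entry of the deposited list for that library was taken, which gave 2196 of the 46669 peaks in 6 lists, or 4.71%. The 6 lists come from 3 control and 3 MACF1 knockdown immunoprecipitates, each called against its own input, so the 12 samples form 4 groups of 3. All samples are the same mouse line, MC3T3-E1, a calvarial preosteoblast line labelled as osteoblast, and the groups differ in the knockdown label and in whether DNA was immunoprecipitated. The sources used here do not say how the knockdown was made or what size3 and EB mean. The antibody label names more than 1 lot without tying a lot to a library. Nothing in the labels says that libraries came from separate cultures, and a list of 1 library carries no replicate error of its own.

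MACF1 is a giant linker of the actin and microtubule networks that guides microtubule growth toward the cell edge and acts in Wnt signalling. It is known chiefly from the cytoplasm, so a chromatin immunoprecipitation asks where in the genome the antibody recovers DNA, directly or through other proteins. In such an assay, sheared chromatin is pulled down with the antibody, and regions with more sequenced fragments than the input are called as peaks. A peak called at a transcription start lies where a gene's RNA synthesis begins, whereas peaks within long genes or between genes fall on the bulk of the genome. The assay reads DNA and not Macf1 RNA, so it checks neither the knockdown nor the cell type label. No control size3 peak lay in Macf1 (chromosome 4, 123349633 to 123687802, GRCm38) or within 5 kb of it, and the nearest was 3646259 bp away, at 119702731 to 119703374 on the same chromosome near Hivep3, with 18 reads and a fold enrichment of 7.5.

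Few of the peaks lay on promoters, and the ones that were also covered by a knockdown peak are shown here because they tie the list to known gene starts. Of 32851 RefSeq promoter windows, each running from 250 bases before a transcription start to 50 bases after it, 65 (0.198%) were overlapped by a control size3 peak. These windows belonged to 56 genes and 53 peaks, and 14 windows of 12 genes were also hit by a control peak that overlapped a peak of knockdown size3 or knockdown 1. The 250 bases upstream of the start follow for 6 protein-coding genes of that set, picked after their values were seen, from the RefSeq promoter table of GRCm38.p6, each 5′ to 3′ on the gene's own strand. Capitals mark the bases under the control size3 peak. Hjurp, which encodes the chaperone that places the centromeric histone, is on the minus strand (chr1:88277580-88277829). Mfsd6, a membrane transporter family gene, is on the minus strand (chr1:52727359-52727608). Gpr63, an orphan receptor gene, is on the plus strand (chr4:24965804-24966053). Syt6, a synaptotagmin gene of vesicle fusion, is on the plus strand (chr3:103574995-103575244). Metrnl, which encodes the secreted factor meteorin-like, is on the plus strand (chr11:121702177-121702426). Clec4f, a C-type lectin gene known from liver macrophages, is on the minus strand (chr6:83656117-83656366).
Hjurp: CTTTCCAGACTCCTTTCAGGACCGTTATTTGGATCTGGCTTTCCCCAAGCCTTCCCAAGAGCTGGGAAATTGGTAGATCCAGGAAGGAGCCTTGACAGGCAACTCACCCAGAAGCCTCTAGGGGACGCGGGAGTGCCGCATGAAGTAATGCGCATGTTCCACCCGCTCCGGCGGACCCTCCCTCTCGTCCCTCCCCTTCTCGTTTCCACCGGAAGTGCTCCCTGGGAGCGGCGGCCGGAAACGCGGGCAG
Mfsd6: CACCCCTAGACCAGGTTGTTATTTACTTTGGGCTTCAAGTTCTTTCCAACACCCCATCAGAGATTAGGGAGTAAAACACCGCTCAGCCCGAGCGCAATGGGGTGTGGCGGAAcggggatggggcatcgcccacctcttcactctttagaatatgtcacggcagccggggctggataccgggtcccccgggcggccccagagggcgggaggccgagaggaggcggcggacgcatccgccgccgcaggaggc
Gpr63: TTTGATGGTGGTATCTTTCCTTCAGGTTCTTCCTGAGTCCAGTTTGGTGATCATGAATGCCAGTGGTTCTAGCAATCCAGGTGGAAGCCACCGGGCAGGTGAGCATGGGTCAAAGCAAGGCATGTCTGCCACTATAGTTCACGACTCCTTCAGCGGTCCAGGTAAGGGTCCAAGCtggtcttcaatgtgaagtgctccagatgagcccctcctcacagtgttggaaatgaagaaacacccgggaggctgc
Syt6: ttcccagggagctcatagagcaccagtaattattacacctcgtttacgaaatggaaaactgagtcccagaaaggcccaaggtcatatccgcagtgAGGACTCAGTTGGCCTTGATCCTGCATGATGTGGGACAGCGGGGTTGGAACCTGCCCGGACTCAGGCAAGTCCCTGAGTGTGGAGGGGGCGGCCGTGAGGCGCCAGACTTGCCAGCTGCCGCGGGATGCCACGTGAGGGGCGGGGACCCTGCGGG
Metrnl: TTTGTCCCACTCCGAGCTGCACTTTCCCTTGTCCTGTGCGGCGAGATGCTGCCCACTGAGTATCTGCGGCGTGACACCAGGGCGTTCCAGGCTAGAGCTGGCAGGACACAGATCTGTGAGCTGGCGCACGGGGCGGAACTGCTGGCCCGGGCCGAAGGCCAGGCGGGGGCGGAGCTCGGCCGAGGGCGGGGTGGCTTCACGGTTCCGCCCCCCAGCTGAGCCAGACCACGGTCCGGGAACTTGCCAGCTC
Clec4f: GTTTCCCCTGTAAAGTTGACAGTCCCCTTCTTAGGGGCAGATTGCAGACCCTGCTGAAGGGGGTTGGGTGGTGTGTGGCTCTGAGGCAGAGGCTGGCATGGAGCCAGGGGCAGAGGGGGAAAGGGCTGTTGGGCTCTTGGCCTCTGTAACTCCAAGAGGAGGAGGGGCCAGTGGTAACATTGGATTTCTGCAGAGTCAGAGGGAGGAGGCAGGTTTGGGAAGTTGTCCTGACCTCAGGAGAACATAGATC

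The 6 stretches differ in base composition. Metrnl held 20 CpG dinucleotides in its 250 bases and a GC content of 68.4%, Mfsd6 19 and 63.2%, Hjurp 16 and 60.8%, and Syt6 13 and 60.4%. Gpr63 held 4 CpGs at a GC content of 52.4%, and Clec4f held 0 at 57.2%. The peak covered the whole stretch in Hjurp, Metrnl and Clec4f, 175 bases in Gpr63, 155 in Syt6 and 112 in Mfsd6. Peak summits, the points of highest read pile-up, lay 64 bp past the start in Clec4f, 154 bp past it in Metrnl, 225 bp past it in Syt6, 365 bp before it in Gpr63 and 465 bp before it in Mfsd6. In Hjurp the summit lay 3086 bp inside the gene, and the broad peak ran on past the promoter.

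Over whole windows, the 65 promoters under a control size3 peak had a median GC content of 56.7% (quartiles 51 and 62) and a median of 9 CpGs. All 32851 windows had medians of 52.7% and 7. The 14 shared windows had a median of 61.5% and 17.5 CpGs, and the 51 others 54% and 7. For comparison, 5631 windows under a peak of knockdown size3 or knockdown 1 had a median of 62.7% and 21 CpGs. The unshared promoters of the control list thus lay nearer to all promoters in composition than the shared ones did.

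The promoter windows were searched on both strands for 4 short motifs, none of which contains another: GGCGGGAA, an E2F site, CAGCTG and CAGGTG, which are E-boxes read by helix-loop-helix factors, and CTTTGAT, a site of the TCF factors of the Wnt pathway. CAGCTG was found in 15 of the 65 windows (23.1%, 95% Wilson interval 14.5 to 34.6) and in 16.3% of all windows. It lies in the printed stretches of Syt6 and Metrnl. CAGGTG was found in 18 (27.7%, 18.3 to 39.6) and in 20.2% of all. GGCGGGAA and CTTTGAT were each found in 2 (3.08%, 0.848 to 10.5), against 2.19% and 3.73% of all windows. Each interval contained the share of all windows. The 65 windows came from 53 peaks and some overlap each other, as at Syt6. A site can thus count in more than 1 window, and the intervals treat the windows as independent. Intervals here and below cover counting error only.

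The peaks were small, and their strength varied little. The size3 immunoprecipitate held 10698067 reads after duplicate removal and its input 10529079, with a redundant rate of 0.01 in both. The 2196 peaks covered 1.5 Mb. Their width ran from 286 to 5975 bp with a median of 650 bp, and 95.9% were under 1000 bp. They held 12 to 253 reads with a median of 16, so a typical peak rests on a small number of fragments. The score, the −log10 p-value of the peak multiplied by 10, ran from 50.01 to 147.69 with a median of 56.7, where 50 is the cutoff. A score of at least 80 was reached by 131 peaks (5.97%) and one of at least 100 by 21. Swapping the immunoprecipitate and input gave a false discovery rate of 48.75% to 100% for the peaks, with a median of 85.3%, and 0 peaks had a rate of at most 5%. Peaks at that limit numbered 10161 of 17592 in knockdown size3 and 21159 of 21398 in knockdown 1, but only 51 of 4513 in knockdown 2. Control 1 had 1 of 772 and control 2 had 0 of 198.

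Fold enrichment, the ratio of reads at the summit to the local background, ran from 2.81 to 14.21 with a median of 8.33, and it came in steps. For 1153 peaks (52.5%, 50.4 to 54.6) the fold was, within 0.006, a whole number of reads over 1.13 reads, the expectation for 1 fragment window across the genome. For these peaks the nearby input gave no higher background than the genome-wide one, and 1 read at the summit was worth 0.888 of fold. Steps of 8, 9, 10, 11 and 12 summit reads held 162, 279, 265, 226 and 133 peaks. Single reads therefore set the order of most folds, and peaks that differ by 1 step are not told apart by this value.

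**Figure D1:**
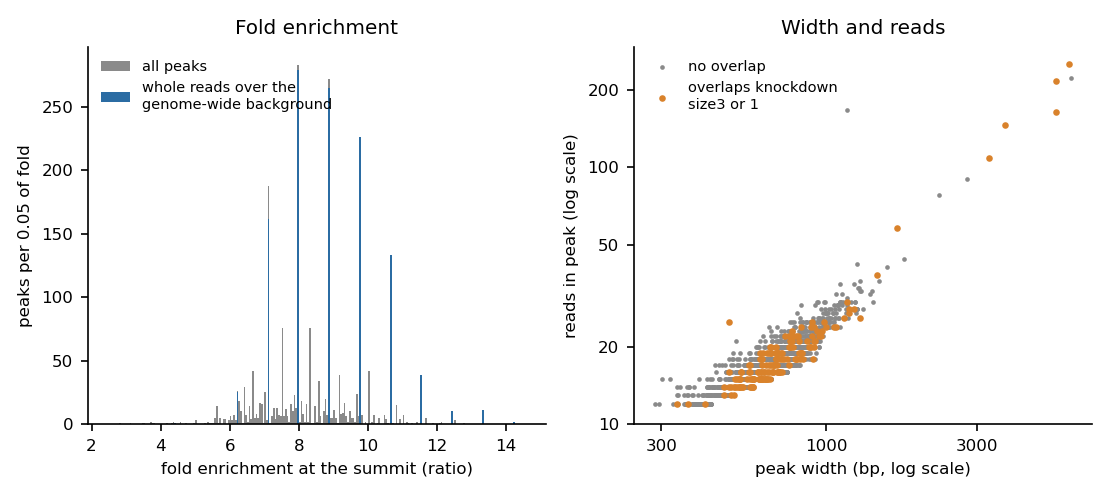
Left, histogram of fold enrichment at the summit for the 2196 control size3 peaks, with peaks at whole reads over the genome-wide background in blue. Right, reads in each peak against its width, both on log scales, with peaks that overlap a knockdown size3 or knockdown 1 peak in orange. The blue bars form a ladder with the tallest step at 7.99, and the few broad peaks with over 50 reads stand apart from the rest.

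The sets of the 10 best-scored and the 10 highest-fold peaks were mostly different, but the peaks near Gm7361 and Snrpc were in both. All 10 best-scored peaks carried a false discovery rate of 100%, the highest in the list, which 13 peaks had. The best score, 147.69, belonged to a peak of 5862 bp and 253 reads in Hjurp, whose fold was only 3.84. Next came a peak 193193 bp from Gm7361 on chromosome 5 (26456924 to 26457756, 29 reads, score 134.45, fold 13.32) and a peak 6769 bp from Snrpc, a spliceosomal protein gene, on chromosome 17 (27832709 to 27833631, 29 reads, score 123.65, fold 13.32). Magi1, a junction scaffold gene, held the peak at 93835103 to 93836497 on chromosome 6 (33 reads, score 120.81), and Smyd3, a lysine methyltransferase gene, one with 24 reads and a score of 116.55. The other peaks of the best 10 lay in Tctn1, Gtf2ird1, Katnal1, Grid2ip and Mroh2a, with scores of 107.7 to 112.08. Among these 10, the peaks in Hjurp and Mroh2a overlapped a knockdown size3 peak and none overlapped a knockdown 1 peak. The highest folds, 14.21, belonged to a peak 80981 bp from Kcnh8 and to one in Matk, a tyrosine kinase gene, with 21 and 20 reads. The rest of the 10 were taken by score from 11 peaks tied at 13.32, and lay near Gm7361, Snrpc, Reep3, Tfap2c and Cep120 and in Ddah1, Mapt and Fam234b. None of these 10 overlapped a peak of either knockdown list, which is near the background, since 7.65% of all control size3 peaks did.

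A run of 8 broad peaks stood out on chromosome 1. They lay between 88229175 and 88303845, a span of 74.7 kb, over Mroh2a, a gene of HEAT repeats, and Hjurp, and up to the start of Trpm8, the cold-sensing channel gene. Their widths were 1674 to 5975 bp and their folds 2.81 to 4.34, below most of the list. Together they held 1262 reads, 3.23% of all reads in peaks, at 37.2 reads per kb against 25.9 in all other peaks. The 5 widest peaks of the list were all in this run, and the widest elsewhere, near Smok2a on chromosome 17, was 2275 bp. Of the 8, 6 overlapped a knockdown size3 peak and 0 a knockdown 1 peak, where 3.37% and 4.78% of all control size3 peaks did. An overlap of 1 bp was enough, which broad peaks reach more readily. The same knockdown size3 peak (88232591 to 88238130) met several of the 8. Knockdown 1 had 1 peak between the 8 control size3 peaks (88254498 to 88256986, 533 reads, fold 2.69). Control 1 had 1 just past them (88308820 to 88311132, 131 reads, fold 3.5). The run was picked out after the values were seen.

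**Figure D2:**
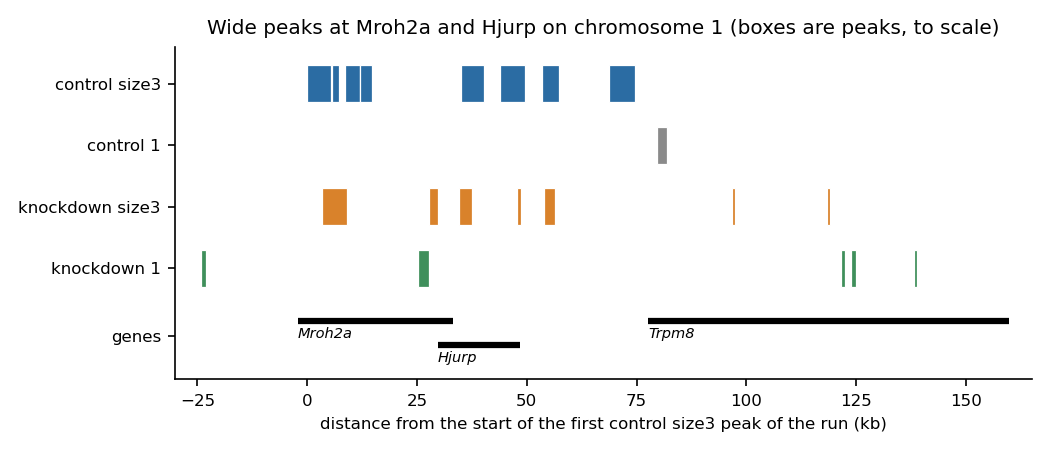
Peaks of 4 libraries as boxes, to scale, by distance in kb from the start of the first control size3 peak of the run, with 3 genes as black bars. The 8 control size3 boxes span 74.7 kb from Mroh2a to just before Trpm8, the knockdown size3 boxes overlap 6 of them, and the knockdown 1 box at Mroh2a falls in a gap.

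A peak on chromosome 17 was the densest in reads. It held 168 reads in 1163 bp (39847793 to 39848955), or 144.5 reads per kb against a list median of 25.6, yet its fold was only 3.47 and its score 55.3. It lay across Rn18s-rs5, a ribosomal RNA pseudogene (39846354 to 39848202), and the noncoding gene AY036118. The next densest peaks, at 50.7 and 49.8 reads per kb, both lay in the pseudogene Speer8-ps1 on chromosome 5, a member of a multigene family. Reads in such repeated sequences cannot be placed with certainty. These peaks were singled out after their values were seen.

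Chromosomes held the peaks very unevenly. Chromosome 5 held 359 peaks (2.37 per Mb), chromosome 2 held 282 (1.55 per Mb) and chromosome 6 held 276 (1.85 per Mb). Chromosome 19 was the densest at 2.58 per Mb with 158 peaks. At the other end, chromosome 7, which has the most protein-coding genes (2030), held 38 peaks (0.261 per Mb), chromosome 13 held 9, X held 1 and Y held 0. The 7 densest chromosomes (19, 5, 6, 17, 2, 11 and 10) held 1597 peaks (72.7%, 70.8 to 74.5) on 32.8% of the chromosome span and 39.1% of the protein-coding genes. The 8 sparsest apart from Y (7, 14, 8, 16, 9, 12, 13 and X) held 184 (8.38%) on 37.9% of the span.

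The other lists leaned toward the same 7 chromosomes by different amounts. They held 80.5% of the control 1 peaks and 71.5% of the control 2 peaks, but 49.1% of knockdown size3, 42.6% of knockdown 1 and 51.4% of knockdown 2 peaks. Over the 20 chromosomes with peaks, Pearson's r of the density per Mb with that of control size3 was 0.882 for control 1, 0.832 for control 2, 0.783 for knockdown size3, 0.716 for knockdown 2, 0.621 for knockdown 1 and 0.429 for protein-coding genes. By Spearman's rank correlation the order differed, at 0.797, 0.661, 0.854, 0.8, 0.707 and 0.481. In 275 bins of 10 Mb Pearson's r was 0.715 with knockdown size3, 0.577 with knockdown 1, 0.409 with knockdown 2, 0.398 with control 1 and 0.272 with control 2. By Spearman's rank correlation the bin values lay closer together, at 0.741, 0.637, 0.669, 0.603 and 0.442. With protein-coding genes the bin values were 0.33 by Pearson and 0.366 by Spearman. These correlations describe chromosomes and bins, which share their sequence and length across lists. The peaks themselves also differed by chromosome. On the 7 densest, 44% of the folds stood on the genome-wide background and the median peak held 17 reads. On the 8 sparsest, 89.1% stood on that background and the median peak held 15 reads. The part that local input depth has in the chromosome counts was not tested.

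**Figure D3:**
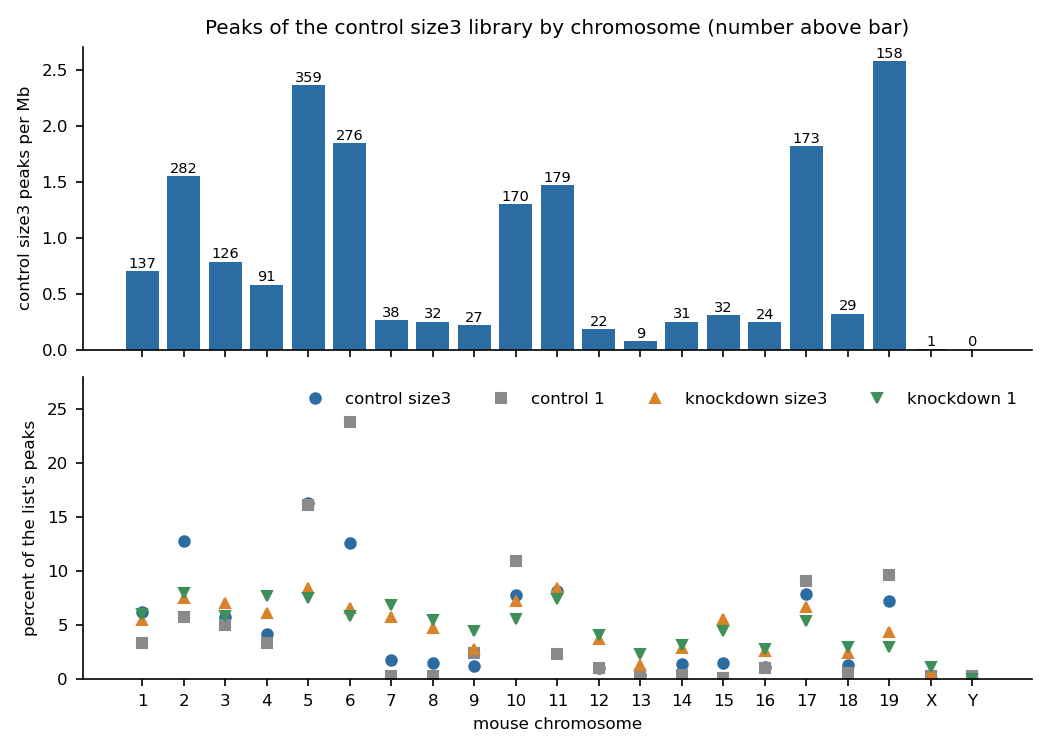
Top, control size3 peaks per Mb of each mouse chromosome, with the number of peaks above each bar. Bottom, percent of each list's peaks by chromosome for 4 lists. Chromosomes 19 and 5 have the tallest bars at 2.58 and 2.37 per Mb, and the knockdown lists spread more evenly than the control lists.

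Within chromosomes the peaks gathered in stretches. Of the 275 bins, 42 (15.3%) held 50% of the peaks, 38 held none and the fullest held 52. On chromosome 5 the stretch from 110 to 150 Mb held 176 peaks (4.4 per Mb) and the stretch before it 180 (1.64 per Mb). In the same 2 stretches knockdown size3 had 18 and 6.78 peaks per Mb and knockdown 1 had 18.9 and 7.49. Protein-coding genes stood at 13.6 and 6.47 per Mb. The opposite order was found in control 1 (0.25 and 1.02 per Mb), control 2 (0.1 and 0.182) and knockdown 2 (1.22 and 2.5). On chromosome 2, the part from 150 to 180 Mb held 3.77 peaks per Mb. On chromosome 1, the density was 1.35 per Mb beyond 120 Mb and 0.292 before it. All other lists had the same order there, with 0.305 and 0.025 in control 1 and 0.0664 and 0.00833 in control 2. The values were 6.8 and 3.73 in knockdown size3, 8.61 and 5.33 in knockdown 1, and 1.33 and 0.983 in knockdown 2. Protein-coding genes also had this order, at 7.61 and 5.26 per Mb. These stretches were set after the bins were seen. Neighbouring peaks were a median of 351.8 kb apart, and 58 of 2176 gaps were under 10 kb.

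Most peaks lay away from gene ends. Gene spans came from RefSeq (GRCm38.p6), and the table gives no exons, so exon and intron were not told apart. The summit lay inside a protein-coding gene for 1138 peaks (51.8%, 49.7 to 53.9) and inside a gene of any class for 1318 (60%). The holding genes were long, with a median of 105.1 kb against 17.2 kb for all protein-coding genes. Genes over 100 kb held 51.5% of the peaks inside genes, and they make up 59.2% of total gene length. For the 1058 peaks outside protein-coding genes the median distance to the nearest such gene was 38.8 kb, and 41 lay over 500 kb away. For 121 peaks the summit fell at most 1 kb from a gene end, that is from the start or stop of a protein-coding gene's span (5.51%, 4.63 to 6.54). A summit within 1 kb of a transcription start in the promoter table was found for 69 of 2167 (3.18%, 2.52 to 4.01), where the table holds a start for 81.8% of the protein-coding genes on its chromosomes.

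The share at starts placed the list between the other controls and 2 of the knockdown lists. It was 0.406% in control 1, 0% in control 2 (0 of 164, upper bound 2.29%) and 0.573% in knockdown 2. It was 9.29% (8.86 to 9.73) in knockdown size3 and 12.4% (11.9 to 12.8) in knockdown 1. The interval of control size3 did not overlap that of any of the other 5 lists. The share inside protein-coding genes was 39.4% in control 2, 40.8% in knockdown 2, 43.7% in control 1, 51.8% in control size3, 59.6% in knockdown size3 and 61.8% in knockdown 1. Each of these values comes from 1 library, so they describe lists and not conditions.

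**Figure D4:**
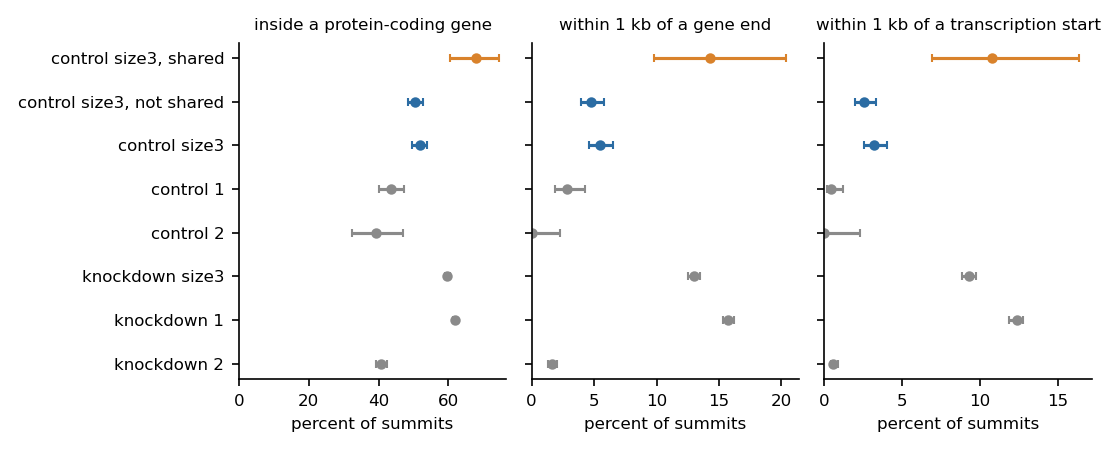
Percent of peak summits inside a protein-coding gene, within 1 kb of a gene end and within 1 kb of a transcription start, for control size3 peaks that overlap a knockdown size3 or knockdown 1 peak (orange), those that do not and all of them (blue), and the other 5 lists (grey). Bars are 95% Wilson intervals. The shared peaks sit at 14.3% for gene ends and the unshared ones at 4.78%.

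Few control size3 peaks overlapped a peak of knockdown size3 or knockdown 1, but the shares were above those of control 1, control 2 and knockdown 2. At least 1 bp was shared with a knockdown size3 peak by 74 control size3 peaks (3.37%, 2.69 to 4.21) and with a knockdown 1 peak by 105 (4.78%, 3.97 to 5.76). Either was met by 168 peaks (7.65%, 6.61 to 8.84), both by 11 and neither by 2028. Counted from the other side, these were 0.409% of the knockdown size3 list and 0.491% of the knockdown 1 list. Without knockdown 1 the share fell from 7.65% to 3.37%, and without knockdown size3 to 4.78%. By the same rule, control 1 peaks met knockdown size3 and knockdown 1 in 0.389% and 0% of cases. For control 2 the shares were 1.01% (2 of 198, 0.277 to 3.61) and 0.505%. For knockdown 2 they were 0.532% and 0.975%. A control 1 peak was overlapped by 1 peak, a control 2 peak by 1 and a knockdown 2 peak by 7. These lists are shorter, and from their side the overlap was 0.13% of control 1, 0.505% of control 2 and 0.155% of knockdown 2. Partner peaks differed in width and summit distance between the 2 knockdown lists, and knockdown 1 peaks were wider in the whole list too. Knockdown size3 partners had a median width of 909.5 bp (647 in that whole list), and the summits were a median of 226.5 bp apart. Knockdown 1 partners were 2021 bp wide (990 in the whole list), and the summits were 536 bp apart. In both lists the partner peaks were broader than the list median and had a lower fold, 6.94 against 8.1 in knockdown size3 and 4.05 against 4.98 in knockdown 1. A rule of 1 bp meets broad peaks more readily than narrow ones, so the greater width is not a separate finding. With summits at most 300 bp apart, 42 and 34 pairs were left, or 1.91% and 1.55% of the control peaks.

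Shared and unshared control peaks were alike in strength and unlike in place. The median fold was 8.07 (quartiles 7.1 and 9.17) in the 168 shared and 8.33 (7.5 and 9.77) in the 2028 unshared peaks, and the median width was 681 and 648 bp. The ranges overlapped almost fully. The summit lay inside a protein-coding gene for 67.9% (60.5 to 74.5) of shared and 50.5% (48.3 to 52.7) of unshared peaks. It lay within 1 kb of a gene end for 24 shared peaks (14.3%, 9.79 to 20.4) and 97 unshared ones (4.78%, 3.94 to 5.8). For transcription starts the shares were 10.8% (6.93 to 16.4) and 2.55% (1.94 to 3.34). In all 3 measures the intervals of shared and unshared peaks were apart. The shared set was chosen by overlap with knockdown size3 and knockdown 1, whose own shares were 59.6% and 61.8% inside genes. Their shares were 13% and 15.7% at gene ends, and 9.29% and 12.4% at starts. The split is therefore not independent of where those lists lie.

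The 11 peaks met by both knockdown lists lay in genes of many kinds. The best scored was in Vtcn1, an inhibitory ligand gene of T cells, on chromosome 3 (100866408 to 100867146, 22 reads, score 91.5, fold 7.99), where the knockdown size3 and knockdown 1 peaks held 14 and 58 reads. Nptx2, a neuronal pentraxin gene, followed with a peak within 1 kb of a gene end on chromosome 5 (144545976 to 144546875, 25 reads, score 84.43, fold 8.46). Its knockdown partners were stronger in reads, with 74 and 153, and their folds were 9.96 and 2.49. In Aar2, a spliceosome assembly gene, the 3 folds were 9.17, 9.31 and 4.46, and the control and knockdown size3 summits were 50 bp apart. Fbxw8, a ubiquitin ligase subunit gene, had 24 reads and a fold of 6.22 in control size3. The microtubule-associated genes Map1a and Mtcl1 were among the 11. The Map1a peak (chromosome 2, 121289728 to 121290239, 14 reads, fold 7.99) lay where Map1a and the DNA damage gene Trp53bp1 meet, 446 bp from a start. The Mtcl1 peak on chromosome 17 held 23 reads with a fold of 8.75, and its partners held 86 and 320 reads. The others lay in Csmd2, Stc2, Ap5z1, N4bp3 and Dip2a, with scores of 53.97 to 72.36. Stc2, which encodes the secreted glycoprotein stanniocalcin 2, had its peak 784 bp from a start.

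Among shared peaks within 1 kb of a gene end, 8 were named by score. Besides Nptx2, Stc2, Map1a, Mfsd6, Gpr63 and Syt6, they lay in Phc3, a Polycomb subunit gene (chromosome 3, 30968604 to 30969304, 19 reads, fold 8.33), and in Mc3r, a melanocortin receptor gene (chromosome 2, 172248856 to 172249589, 18 reads, fold 6.56). The Mfsd6, Phc3 and Metrnl peaks overlapped knockdown size3 peaks, and the Gpr63, Syt6, Mc3r and Clec4f peaks overlapped knockdown 1 peaks. At Metrnl, for which the promoter is printed above, the control and knockdown size3 summits were 25 bp apart. At Syt6 and Gpr63 the knockdown 1 summits were 1014 and 1097 bp from the control ones. The knockdown 1 peak covered the whole Syt6 peak but only 21.9% of the Gpr63 peak.

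Genes and exact positions gave different pictures. Of all 21887 protein-coding genes, 29.4% held a knockdown size3 peak and 37.5% a knockdown 1 peak. Among the 975 genes with a control size3 peak, 649 (66.6%) held a knockdown size3 peak, but in only 49 of these did the peaks overlap. For knockdown 1 the numbers were 700 (71.8%) and 75. Genes with a control peak were longer, with a median of 82.5 kb against 16.1 kb. Within length classes the gap was smaller and remained: among genes of 20 to 100 kb, 57.4% (52.6 to 62.1) of those with a control peak and 37.6% (36.5 to 38.8) of those without held a knockdown size3 peak. Among genes over 300 kb the shares were 93.3% and 67.9%. For knockdown 1 they were 66.4% and 47.2% at 20 to 100 kb, and closer together over 300 kb, at 94% and 82.8%. The genes with a control peak were somewhat longer within these classes too, with medians of 48 against 37.8 kb and 466.9 against 431.9 kb. From a control size3 summit, the nearest knockdown size3 summit was a median of 27 kb away and the nearest knockdown 1 summit 25.4 kb away.

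Several peaks in 1 gene were found mostly in long genes. Of the 975 genes, 145 held at least 2 peaks, 32 at least 3 and 12 at least 4. Median gene length was 16.1 kb with no peak, 68.5 kb with 1 and 189.2 kb with at least 2. Of the 145 genes, 122 (84.1%) lay on the 7 densest chromosomes, 135 also held a knockdown size3 peak and 131 a knockdown 1 peak. Such counts are near those of long genes with any control peak. At 100 to 300 kb, 83.8% of these held a knockdown size3 peak and 88.1% a knockdown 1 peak. Over 300 kb the shares were 93.3% and 94%. The count of 145 rests on weak peaks, since 0 genes held 2 peaks with a score of at least 100.

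Tshz2, which encodes a teashirt zinc finger protein, held the most, with 7 peaks on chromosome 2 (gene 169632509 to 170072751). They held 14 to 16 reads each and had folds of 7.1 to 10.66. The gene also held 12 knockdown size3 and 10 knockdown 1 peaks, and none of the 7 overlapped one of these. For 7 peaks that is near the background, since 7.65% of all control size3 peaks did. Sorcs2, a sorting receptor gene of neurons, held 6 over 381 kb. Its strongest peak (chromosome 5, 36202869 to 36203972) had 30 reads and a score of 105.63. That peak also overlapped the promoter window of Psapl1, with its summit at -428 bp from the Psapl1 start. The last Sorcs2 peak (36322810 to 36323724, 21 reads) overlapped a knockdown 1 peak. Cacna1c, the gene of an L-type calcium channel, held 5, led by a peak with 30 reads and a score of 86.77. Cdh4, Prkg1 and Macrod2 also held 5 each, over 457, 1200.8 and 1997.7 kb. Mroh2a, Pde10a, Dlgap4, Asic2 and Sorcs3 held 4 each. Mroh2a was the exception in length, at 35.3 kb, and its 4 peaks belong to the run on chromosome 1. Among the 58 peaks of the 12 genes with at least 4 peaks, 3 overlapped a knockdown size3 peak, all in Mroh2a. A knockdown 1 peak was overlapped by 5 of the 58. Of all control size3 peaks, 3.37% and 4.78% overlapped these lists.

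**Figure D5:**
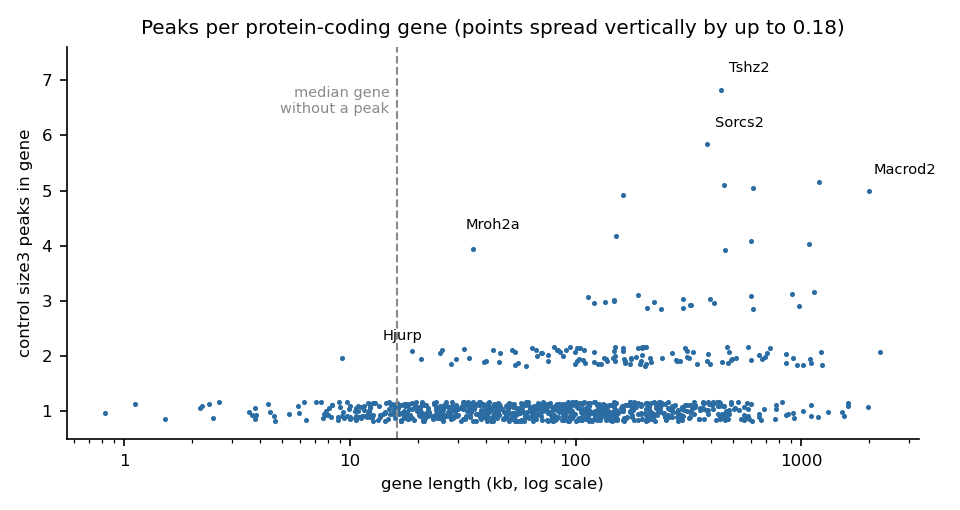
Control size3 peaks in each of the 975 protein-coding genes that held any, against gene length in kb on a log scale. The points move to the right as the number of peaks grows, from a median of 68.5 kb with 1 peak to 189.2 kb with at least 2, and Mroh2a at 35.3 kb stands apart.

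Gene lists chosen for bone, for the cytoskeleton and for other cell types were read against the 5.49% of all protein-coding genes that held a control size3 peak in the gene or within 5 kb. Of 54 genes of osteoblast differentiation and bone matrix, 4 (7.41%) held a peak: Igf1, Igf1r, Runx2 and Tnc. Runx2, the master transcription factor of osteoblasts, held 1 peak on chromosome 17 (44546327 to 44546949, 15 reads, score 53.59, fold 7.1), which overlapped a knockdown size3 peak of 25 reads and fold 4.36. The peak of Igf1, a growth factor gene, held 16 reads with a fold of 6.45, and that of its receptor gene Igf1r 15 reads with a fold of 7.1. Of the 2 peaks at the matrix gene Tnc, the better scored lay outside the gene. The chondrocyte list had 1 of 20 (Sox5, 2 peaks), the adipocyte list 1 of 23 (Lep) and the muscle list 2 of 27 (Cacna1s and Ryr1). These shares are close to that of all genes at such list sizes.

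The Wnt list had 10 of 91 (11%), with ligands, receptors and nuclear factors among them. The ligand gene Wnt5b held the strongest peak (chromosome 6, 119433250 to 119434040, 24 reads, score 90.93, fold 10.28). The ligand gene Wnt16 had a peak with its summit at -1459 bp from its start (21 reads, fold 7.5), and Daam2, an actin-nucleating effector of the pathway, one with 17 reads and a fold of 10.66. Tcf7l1, which encodes a DNA-binding factor of the pathway, had 2 peaks, the better with 21 reads and a fold of 8.2. The others were Lef1, Lgr5, Lgr6, Prickle2, Sfrp2 and Vangl1. None of the 10 genes had a control peak that overlapped a knockdown size3 or knockdown 1 peak, which at 7.65% of all peaks is near the background for so few. In the BMP, TGF-beta and Notch list 4 of 55 held a peak: Smurf1, Tgfbr3, Bmpr1b and Hey2. The peak of Hey2, a Notch target gene, lay 796 bp before its start and overlapped a knockdown 1 peak.

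Of 54 genes of cytoskeletal crosslinkers and microtubule plus ends, the class that MACF1 itself belongs to, 8 (14.8%) held a peak. Clip1, a plus-end tracking protein gene, had the strongest (chromosome 5, 123644760 to 123645827, 26 reads, score 88.52, fold 8.88). Ckap5, a microtubule polymerase gene, had 19 reads and a fold of 7.1, Mapt, the tau gene, 18 reads and a fold of 13.32, and Clip2 21 reads and a fold of 7.99. Map1a was the only one of the 8 with a peak shared with a knockdown list. The list of neuronal adhesion, synapse and guidance genes had 23 of 73 (31.5%), of which 11 held at least 2 peaks. Its best scores were in Dpp6, Tenm2, Pcdh7 and Nrxn2, with 90.14, 82.49, 74.99 and 72.6. The list of E2F and helix-loop-helix factors had 3 of 29: Ehmt1, E2f1 and Pcgf6. Among the lists described here, the neuronal and cytoskeletal ones had the largest shares and also the longest genes. Their median lengths were 902.6 and 84.7 kb, against 17.2 kb for all genes. Below them, share did not follow length. Wnt genes had a share of 11% at a median of 36.1 kb, and BMP, TGF-beta and Notch genes 7.27% at 46.1 kb. The E2F and helix-loop-helix factors had 10.3% at 24.4 kb, and the osteoblast genes 7.41% at 31.2 kb. Across the lists, 6 of the 64 genes with a control peak had one that overlapped a knockdown size3 or knockdown 1 peak. They were Runx2, Hey2, Map1a, Dpp6, Csmd2 and Pcgf6. This is near the background, since 7.65% of all control size3 peaks did.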

How the data were processed

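DNA was measured by chromatin immunoprecipitation with an anti-MACF1 antibody in 12 samples of MC3T3-E1, and 6 peak lists were used. Per the submitters' processing notes, reads were handled with cutadapt, Bowtie2 and MACS 1.4.2 on GRCm38. Each immunoprecipitate had its peaks called separately, with its own input as control, per the file headers, using a p cutoff of 1.00e-05 and a band width of 300 bp, with 1 read kept per position. The authors deposited read counts per peak, whole numbers of reads after duplicate removal. In the deposited score, the −log10 p-value is multiplied by 10. The deposited fold is the ratio of summit reads to background. The deposited false discovery rate is in percent, and the deposited widths and summits are in bp. Peak calls depend on the depth and the input, so numbers of peaks are not compared as levels of binding.

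Overlaps, gene spans and promoter windows were computed with Python 3.11.15, numpy 2.4.6 and pandas 2.3.3, and figures with matplotlib 3.10.9. The overlap rule was 1 bp, and the steps were tested on planted overlaps. No test across samples was made, since the list is 1 library, and shares carry 95% Wilson intervals. Groups came from sample titles. Promoters matched 27025 genes, and every name in the 10 gene lists was found in the gene table. The members and the gene lists were chosen with earlier results of these data known. Named by rule were Macf1, the 12 genes with most peaks, the 10 best scores and 10 highest folds, the 5 widest peaks, every peak met by both knockdown lists, 8 shared peaks at gene ends and at most 4 members of each list by score; some items that this rule names are not reported here. Alternatives covered other overlaps, stricter peaks, other gene classes and windows, and each knockdown list left out. Leaving out the run on chromosome 1 and using transcription starts were added after seeing the data. Peak sequences, exons and read-level data were not analysed here.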

Additional observations from a re-analysis of the deposited data

How the results depend on the processing

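No paired analysis was possible because every value describes 1 list and no test compares groups. Of 49 alternatives over 8 results, 30 gave a value within the interval or factor set for that result, 19 moved it and 0 reversed a direction. Requiring overlap of at least 50% of the control peak gave 2.5% with knockdown size3 and 6.42% with either list. Summits at most 300 bp apart gave 1.91%, 1.55% and 3.46% with knockdown size3, knockdown 1 and either. Control peaks with a score of at least 100, only 21, gave 9.52%, 0% and 9.52%, put 66.7% inside protein-coding genes and 9.52% at gene ends, and left 0 genes with 2 peaks. Knockdown peaks with a false discovery rate of at most 5% gave 2.32% with knockdown size3. Using 1 knockdown list gave 3.37% to 4.78%. All gene classes gave 60% inside genes and 9.06% at gene ends. For gene ends, any base of the peak gave 6.74%, a 5 kb window 17.4% and transcription starts 3.18%. Without the run on chromosome 1, 3.11% and 7.4% overlapped knockdown size3 and either list, and the difference of median fold, overlapping minus other, went from -0.255 to -0.065. Without knockdown size3 that difference was 0.0. A median of 16 reads per peak limits all of these values.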
